A study of Mus musculus with 24 samples.

Results

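The crystalline lens was measured on 3 of the 24 miRNA arrays of the series, and these 3 arrays were set against the 15 arrays of the cornea, iris, retina, choroid and sclera. The members were chosen by their tissue label alone. The mice were male C57BL/6J animals, and each tissue had 1 array in each of 3 spectacle groups. The Control group had naïve right eyes without a spectacle lens, the Lens-induced group wore a −30 diopter (D) spectacle lens on the right eye for 3 weeks from an age of 3 weeks, and the group labeled 0D is not described further in the text of the study. Each ocular array of the Control and Lens-induced groups held the mixed RNA of 3 mice. The tissue labeled choroid is the sample that the study calls RPE/choroid. The 3 crystalline lens arrays were used as near-replicates of 1 tissue, so that the spread among them contains the spectacle group, the slide and the mice. Spectacle group, which is also the slide, was a term of the fit, and the permutations stayed within slides. P-values therefore measure the spread between arrays that remains after it, and not that between single animals. All arrays of a spectacle group lay on 1 slide, and every slide held each tissue once.

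The crystalline lens is a transparent, avascular tissue. A single layer of epithelial cells covers its anterior surface, and these cells differentiate into elongated fiber cells that are filled with crystallins and lose their nuclei and other organelles. A miRNA is a short RNA that is cut from a hairpin precursor and loaded into an Argonaute protein, and pairing of its seed (bases 2 to 8) with a messenger RNA lowers the output of that messenger. miRNAs that share a seed can recognize overlapping sets of targets. miR-184 and miR-204 are known from the eye, and mutations in either of their genes have been tied to inherited eye disease.

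Mature sequences were taken from RefSeq, with GRCm38.p6 as the build, and 112 of the 127 miRNAs considered for naming had an entry. Each is written 5′ to 3′ with the seed in capitals. The first set holds miRNAs that were brighter in the crystalline lens than in most or all other tissues, or among its brightest signals.
miR-184-3p: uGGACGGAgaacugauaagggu
miR-31-5p: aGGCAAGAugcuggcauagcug
miR-20a-5p: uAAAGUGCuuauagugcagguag
miR-133b-3p: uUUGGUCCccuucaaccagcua
miR-6366: aGCUAAGGggcccggggagcca
miR-5100: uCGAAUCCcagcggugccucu
miR-3963: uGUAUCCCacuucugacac
miR-3968: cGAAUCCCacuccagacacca
miR-8110: aAGCGUGGauugggggggggg

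miR-184-3p lay at chr9:89802263-89802284 on the minus strand, miR-31-5p at chr4:88910614-88910635 on the minus strand and miR-20a-5p at chr14:115044183-115044205 on the plus strand. miR-5100 and miR-3968 shared a run of 9 bases (cgaauccca), and miR-3963 and miR-3968 shared a run of 8 bases, so that the signals of these miRNAs may not be separate measurements.

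The second set shows related sequences whose members differed between the crystalline lens and the other tissues in unlike ways. miR-204-5p and miR-211-5p have the same seed and differ at 1 of 22 bases (A17U, counted from the 5′ end of miR-204-5p). miR-212-3p and miR-132-3p also share a seed, and their genes lie close to each other on chromosome 11.
miR-204-5p: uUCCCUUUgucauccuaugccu
miR-211-5p: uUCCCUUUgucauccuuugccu
miR-211-3p: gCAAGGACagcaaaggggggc
miR-212-3p: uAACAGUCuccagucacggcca
miR-132-3p: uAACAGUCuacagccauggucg

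The third set holds miRNAs that were lower in the crystalline lens than the mean of the 5 other tissues, or not detected in it. It contains 4 members with the seed AGCAGCA, 3 members with the seed AGCACCA, and the markers of endothelium, mesenchyme and surface epithelium.
miR-15a-5p: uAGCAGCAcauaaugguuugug
miR-16-5p: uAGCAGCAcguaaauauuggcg
miR-195a-5p: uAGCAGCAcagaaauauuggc
miR-497a-5p: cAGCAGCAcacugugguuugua
miR-29a-3p: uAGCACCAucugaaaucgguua
miR-29b-3p: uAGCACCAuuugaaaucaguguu
miR-29c-3p: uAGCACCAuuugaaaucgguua
miR-126a-3p: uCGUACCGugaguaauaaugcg
miR-199a-3p: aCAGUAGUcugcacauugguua
miR-205-5p: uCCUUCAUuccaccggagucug
miR-200b-3p: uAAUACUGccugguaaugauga

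The crystalline lens had few detected miRNAs. Of 1881 miRNAs on the array, 136 were detected in the Control lens, 149 in the 0D lens and 129 in the Lens-induced lens. Detection requires 1 or more probes whose intensity exceeds 3 times the probe's error. The mean was 138 ± 10.1 (SD, n = 3), against 212 ± 32.8 (SD, n = 15) on the arrays of the other 5 tissues (exact permutation test within slides, two-sided, p = 0.00926). The cornea, with 137, 149 and 172, overlapped with the lens, and the other 4 tissues lay between 213 and 245. With 1 common detection limit for all scaled arrays, 136 miRNAs remained on average in the lens against 159 elsewhere (exact permutation test, p = 0.0231). The smallest p that this exact test allows is 0.00463. The test takes the arrays of the other tissues as interchangeable, although each of these tissues has 3 arrays.

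The signal was concentrated in a small number of miRNAs. The 10 brightest held 93.1% of the signal of the Control lens, 92.4% of the 0D lens and 93.1% of the Lens-induced lens, against 52.3 to 87.0% on the other 15 arrays (mean difference 26.9 percentage points, exact permutation test, p = 0.00463). No lens array overlapped with another tissue. The cornea came next, with 83.9 to 87.0%. On each lens array 6 miRNAs reached 90% of the signal, whereas between 17 and 62 were needed elsewhere. The total signal did not set the lens apart, with 75906 to 92638 on the lens arrays and 35095 to 136566 on the others (exact permutation test, p = 0.407).

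**Figure D1:**
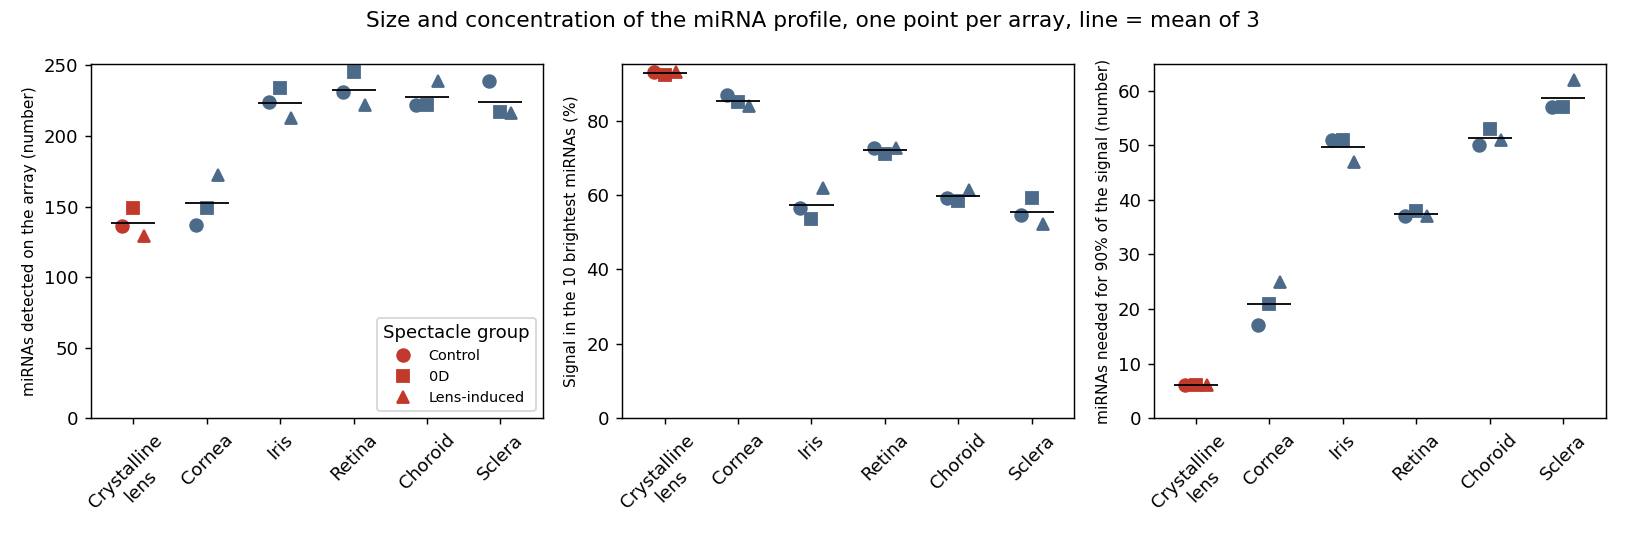
Points are single arrays, grouped by tissue on the x axis, and the y axes give the number of detected miRNAs, the percent of the array's signal in its 10 brightest miRNAs, and the number of miRNAs needed to reach 90% of the signal. The 3 crystalline lens arrays hold 92.4 to 93.1% of their signal in 10 miRNAs and need 6 to reach 90%, while their detected miRNAs (129 to 149) overlap with those of the cornea (137 to 172).

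Most of this signal came from miRNAs with high numbers. miRNA numbers follow the order of discovery, and many of the later entries have less support as processed miRNAs. The let-7 family and the miRNAs numbered under 1000 held 12.4% of the signal of the lens (11.8 to 13%), against 43.7 to 68.3% elsewhere (exact permutation test, p = 0.00463). Within this older class the 10 brightest held 70.1% in the lens and 55.1% on average elsewhere, a difference that did not pass the test (exact permutation test, p = 0.204), and the cornea was higher with 74.4 to 77.5%. Other measures of concentration in the older class differed in outcome. The number of its miRNAs needed for 90% of its signal was 33.7 in the lens against 47.7 on average elsewhere (exact permutation test, p = 0.0694). The number that held at least as much signal as all the rest was 1.67 against 8.53 (exact permutation test, p = 0.0741). Neither passed, whereas the following measures of this class did. Its brightest miRNA held 49.6% in the lens against 20.98% on average elsewhere (exact permutation test, p = 0.0370), and the effective number of miRNAs (the exponential of the Shannon entropy of the signal shares) was 14.7 against 41.4 (exact permutation test, p = 0.0370). The cornea was more concentrated than the lens by both, with 57.5 to 63.0% and 8.43 to 10.9. Older miRNAs were also fewer, with 100 detected on average (95 to 109) against 115 to 208 (exact permutation test, p = 0.00463). The numbers of detected later miRNAs were 38.0 on average in the lens and 22 to 68 elsewhere (exact permutation test, p = 0.468).

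miR-6366 alone made up 63.9 ± 0.818% (SD, n = 3) of the lens signal, against 19.3 to 45.4% on the other arrays. It was followed by miR-5100 with 9.0%, miR-3963 with 8.55%, miR-184-3p with 6.20%, miR-8110 with 1.72% and miR-3960 with 1.06%. miR-184-3p was the brightest of the older miRNAs in the lens and made up 49.6% of their signal there (42.4 to 53.6%). These shares compare probes with different sequences, and a probe's brightness also depends on how well it binds, so that they describe the arrays and not the abundance of 1 miRNA against another.

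For the comparison of single miRNAs, each array was brought to a common 75th percentile, taken over the 79 miRNAs that all 24 arrays detected. Values below are scaled signals in the order Control, 0D and Lens-induced. A miRNA was tested when it lay above a common floor of 9.93 on all 3 arrays of at least 1 ocular tissue, which 238 did, and values under the floor entered the fit at the floor. Arrays at the floor do not differ from each other. The p-value of a miRNA with many such arrays therefore does not measure its spread between arrays. A miRNA was called at a limma adjusted p under 0.05 and a fold over 2. On this scale 56 miRNAs were higher in the lens than the mean of the 5 other tissues (23.5% of those tested) and 65 were lower (27.3%). Of these, 28 of the 56 and 62 of the 65 were let-7 or numbered under 1000, as were 184 of the 238 tested. Every lens array lay above all 15 others for 51 miRNAs (21.4%) and below all 15 for 33 (13.9%). Within each of the 3 slides, the 56 and the 65 kept the same sign, which is no separate support, since they were called from these same arrays.

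The split between higher and lower depended on the scaling, and the reference miRNAs were dim on the lens arrays. Their log2 scaling factors were 1.27 to 1.65, against −1.01 to 0.98 on the other arrays (exact permutation test, p = 0.00463). Without scaling the median log2 difference moved by −1.01, and 31 miRNAs were called higher and 124 lower. Scaled on older miRNAs alone the median moved by 0.43, with 61 higher and 40 lower, and on later miRNAs alone by −0.65, with 8 higher and 104 lower. The 31 and the 8 were all among the 56, and the 124 and the 104 included all 65. Under the main scaling, no scaling, the set of miRNAs detected on all 18 ocular arrays, quantile normalization and the scalings on older and on later miRNAs alike, 8 miRNAs were called higher and 37 lower. The 8 were miR-184-3p, miR-31-5p, miR-211-3p, miR-3960, miR-3968, miR-6769b-5p, miR-7047-5p and miR-8110.

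**Figure D2:**
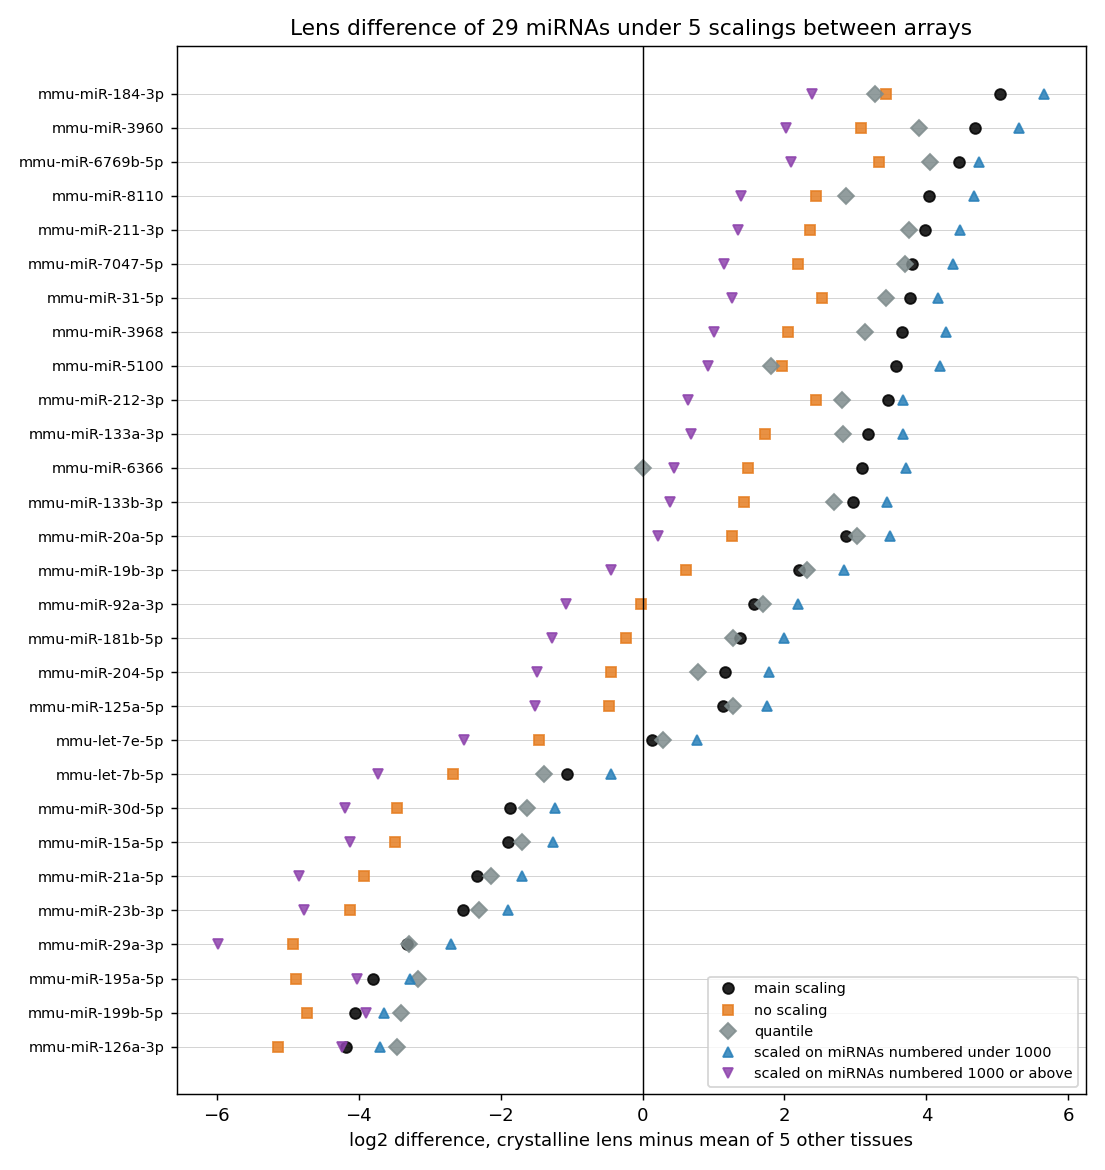
Each row is a miRNA and each symbol its log2 difference, the lens minus the mean of the 5 other tissues, under 1 of 5 scalings. Of the 29 miRNAs, miR-184-3p and miR-31-5p stay above 0 and miR-29a-3p and miR-195a-5p below 0 under each scaling shown, whereas miR-204-5p and miR-125a-5p lie on both sides of 0.

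miR-184-3p, a miRNA of the lens and corneal epithelium, had lens signals of 16120, 11130 and 16390. The cornea was higher still, with 36854, 29710 and 34076, while the iris had 505 to 550 and the retina, choroid and sclera 32.6 to 275. The lens exceeded every array of the last 4 tissues, and no corneal array overlapped with a lens array. The log2 difference to the mean of the 5 tissues was 5.04 ± 0.21 (SE; limma, adjusted p = 1.45e-10), and to the cornea alone −1.22 (adjusted p = 0.00152), which is 2.33-fold lower. Without scaling the difference to the mean was 3.43.

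miR-31-5p, which is abundant in stratified epithelia, had lens signals of 370, 321 and 358. The cornea had 273, 256 and 211, the iris and choroid 18.6 to 24.6, the sclera at most 8.76, and no retinal array detected it. On the scaled signals every lens array was above all others. The scaling raised the lens arrays (log2 factors 1.27 to 1.65) more than those of the cornea (0.69 to 0.98). The log2 difference was 3.77 ± 0.07 (SE; limma, adjusted p = 4.78e-14) against the mean and 0.51 against the cornea, which is 1.42-fold and under the threshold of size. The opposite arm, miR-31-3p, had 26.1, 42.1 and 26.5 in the lens, 45.4 to 58.7 in the cornea and, among the other 12 arrays, 2.44 on 1 array of the iris.

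miR-3960 and miR-8110 had the largest differences among miRNAs detected on all 18 arrays, apart from miR-184-3p. miR-3960 had lens signals of 3152, 2030 and 2261, and the other arrays a lowest, median and highest signal of 37.8, 110 and 223, a 25.7-fold difference (limma, adjusted p = 8.16e-11). miR-8110 had 5138, 3241 and 3730 against 124, 240 and 585, a 16.5-fold difference (adjusted p = 2.70e-10). The lens and the other arrays did not overlap for either of them. In both, the Control lens was the brightest of the 3 lens arrays.

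miR-212-3p, a member of a family known from neurons, was almost equal on the 3 lens arrays, with 127, 127 and 126. On the other arrays it reached at most 22.4, in the cornea, and 6 of the 15 did not detect it. The difference was 11-fold (limma, adjusted p = 2.01e-13), with undetected arrays and those under the floor of 9.93 set at the floor. The median of the 15 other arrays was 5.47, so that most of them entered the fit at the floor. This p-value does not measure their spread. miR-132-3p, with the same seed, was not detected on any lens array and had 69.7 to 89.5 in the retina, at least 3.19-fold above the limit of the lens. Here a bound sets the mean of the brightest tissue against the signal that the undetected probes would have had at 3 errors each.

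miR-6366, miR-5100, miR-3963 and miR-3968 were also higher. Of these, only miR-3968 was called higher under all the scalings listed above, and its difference was smallest with later miRNAs as the scale. The calls of miR-6366, miR-5100 and miR-3963 were less stable. miR-5100 had 21238, 20813 and 20906 in the lens and 4053 to 4973 in the cornea, and the other 12 arrays lay between 808 and 2178, an 11.9-fold difference to the mean (limma, adjusted p = 2.74e-10). miR-6366 had 142056 to 154894 against 7582 to 59310 and was 8.56-fold higher (adjusted p = 1.13e-09). Its log2 difference of 3.10 became 0 under quantile normalization, which gives the brightest miRNA of every array the same value.

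**Figure D3:**
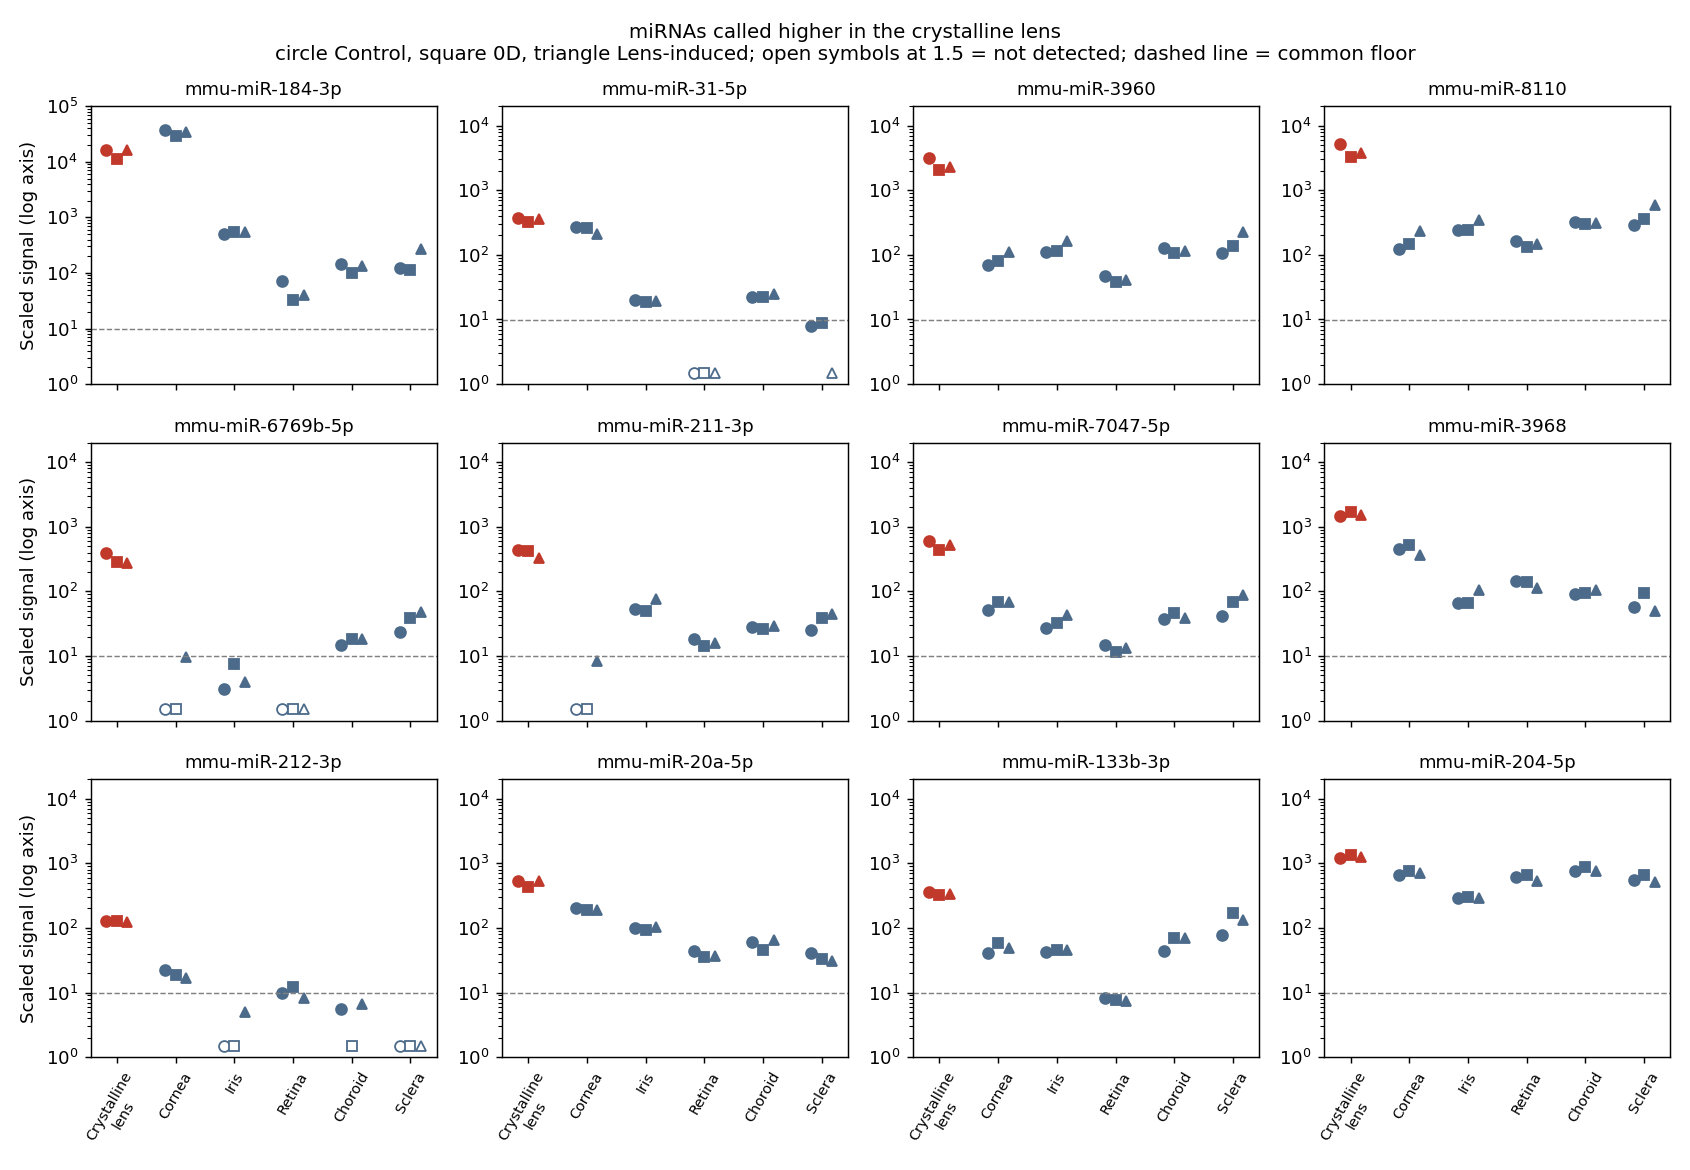
Points are scaled signals of single arrays on a log axis, by tissue, for 12 miRNAs called higher in the lens that the text describes or lists, with open symbols for arrays that did not detect the miRNA and a dashed line at the common floor. For miR-31-5p the cornea (211 to 273) lies just under the lens (321 to 370), and for miR-212-3p the lens (126 to 127) lies far above the next tissue.

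Higher than in each of the 5 tissues were 41 miRNAs (17.2% of those tested), of which 17 were older. The next brightest tissue was the sclera for 14 of them, the cornea for 11, the iris for 7, the retina for 2 and the choroid for 1, and for 6 no other tissue had a mean above the floor. Without scaling 16 were called. Among the ocular arrays, 9 miRNAs were detected on all 3 lens arrays and on at most 3 of the 15 others, and 4 of these 9 were also detected on arrays of the brain regions SCN and LGN. Named after their values were seen, miR-188-5p had 83.8, 50.7 and 49.4 and was otherwise detected on 1 array of the sclera, with 5.53, and on no brain array. miR-375-3p, a miRNA of neuroendocrine cells, had 46.6, 46.2 and 43.9 and was among the other ocular tissues found in the retina, with 14.9 to 19.96, and also on 2 of the 6 brain arrays. miR-1198-5p had 40.5 to 45.7 and was detected on 1 retinal array and on all 6 brain arrays.

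Members of the miR-17-92 cluster and its paralogs, which are known for promoting proliferation, were brighter in the lens in part. Of 8 tested, 4 were higher and none lower, where 23.5% of all tested miRNAs were higher and 27.3% lower. The median log2 difference was 1.23, against −0.36 over all miRNAs tested. miR-20a-5p had 530, 436 and 532 in the lens and a lowest, median and highest signal of 31.2, 60.7 and 207 elsewhere, a 7.32-fold difference without overlap (limma, adjusted p = 4.07e-12). miR-19b-3p had 465, 463 and 462 against 43.7, 99.6 and 210, and miR-92a-3p had 385, 327 and 351 against 47.8, 94.5 and 281. The X-linked paralog miR-20b-5p, which is not in the list, had 66.2 to 69.7 in the lens and at most 36.4 elsewhere. miR-17-5p was not detected on any of the 18 arrays. The direction of the group was not kept by every scaling, since 1 was higher and 2 were lower without scaling (median 0.14), and none was higher and 3 were lower when later miRNAs set the scale (median −0.76).

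Of the miRNAs of striated muscle, 3 of 4 tested were higher in the lens, where 23.5% of all tested miRNAs were. miR-133a-3p had 315, 267 and 298 in the lens, 58.4 to 116 in the sclera and 5.38 to 49.3 in the other tissues, a 9.06-fold difference to the mean (limma, adjusted p = 3.25e-10). miR-133b-3p had 355, 325 and 340 in the lens and at most 170 elsewhere, and miR-1a-3p had 69.0, 77.7 and 65.3 against at most 39.3. miR-206-3p, which marks skeletal muscle, was near the floor, with 18.1, 16.7 and 14.8 in the lens and 5.90 on 1 other array. The lens arrays lay above all others for each of the 4. The summed signal of the list was 686 to 757 in the lens and 12.7 to 330 elsewhere. Without scaling 2 were called higher, and with later miRNAs as the scale none was (median 0.38).

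miR-204-5p and miR-211-5p, which differ by 1 base, went in opposite directions. miR-204-5p had 1198, 1349 and 1247 in the lens, 662 to 749 in the cornea, 758 to 881 in the choroid and 288 to 304 in the iris, and no lens array overlapped with another tissue. Its 2.24-fold difference (limma, adjusted p = 3.25e-10) was a log2 value of 1.16 and turned to −0.44 without scaling and to −1.49 with later miRNAs as the scale. miR-211-5p, which lies in an intron of the melanocyte gene Trpm1, had 28.2, 27.6 and 21.2 in the lens, 12.04 to 43.3 in the cornea and 772 to 906 in the iris. It was 4.40-fold lower than the mean (adjusted p = 1.35e-05) and stayed lower under each scaling, and against the cornea alone the log2 difference was 0.14 (adjusted p = 0.943).

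The 2 arms of the miR-211 hairpin were split. miR-211-3p had 432, 415 and 326 in the lens and at most 77.1 elsewhere, in the iris, a 15.7-fold difference (limma, adjusted p = 9.21e-11). Where the iris was brightest for miR-211-5p, the lens was brightest for miR-211-3p. Among 17 hairpins with both arms tested, 1 was higher in both arms (miR-31), 2 were lower in both (miR-140 and miR-199a) and 2 were called in opposite directions (miR-211 and miR-652). miR-652-5p had 123, 121 and 117 in the lens and at most 57.0 elsewhere, whereas miR-652-3p was detected on the 0D lens array alone, with 15.1, and had 28.9 to 112 elsewhere. The higher call of miR-652-5p turned to −0.11 when later miRNAs set the scale.

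The lower side was made up mostly of older miRNAs. All 65 were also called lower without scaling, and 40 of them when older miRNAs set the scale. Of the 65, 26 were detected on all 3 lens arrays, 9 on 1 or 2 of them and 30 on none. The fit set these 30 at the floor of 9.93 in the lens, under the lens limits of 25.2 to 26.0 that the bounds use. Against their brightest tissue, 26 of the 30 allowed a bound of at least 2-fold. Among the rest, miR-30a-3p allowed 1.17-fold and miR-451a 1.74-fold. Lower than in each of the 5 tissues were 13 (5.46%), all of them older.

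The miR-29 family, known for repressing collagens and other matrix genes, was lower in all 3 members, where 27.3% of all tested miRNAs were lower. miR-29a-3p had 90.8, 128 and 119 in the lens against a lowest, median and highest signal of 901, 1081 and 1581 elsewhere, so that the lens lay about an order of magnitude below every other array. It was 10.03-fold lower than the mean (limma, adjusted p = 7.30e-12). miR-29b-3p had 15.9, 24.3 and 18.3 against 90.1, 141 and 309 and was 7.53-fold lower (adjusted p = 7.30e-12). miR-29c-3p had 89.2, 111 and 107. It overlapped with the cornea, which had 78.9 to 89.6, and the 2.61-fold difference to the mean came from the other 4 tissues, up to 1391 in the retina. The direction of all 3 was the same under each scaling, and 2 were still called lower when older miRNAs set the scale.

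Of 7 tested members of the miR-15/16 and miR-103/107 list, whose first group restrains the cell cycle, 6 were lower, and 4 were when older miRNAs set the scale. On the main scale 27.3% of all tested miRNAs were lower. miR-195a-5p was detected on the 0D lens array alone, with 13.3, and had 91.6, 140 and 299 as lowest, median and highest elsewhere (limma, adjusted p = 3.66e-12). miR-497a-5p, from the same cluster on chromosome 11, was likewise found on the 0D lens array alone, with 12.1, against 60.1, 126 and 242 (adjusted p = 7.35e-13). miR-16-5p had 13.9 on the 0D lens array only, against 38.3 to 131. miR-15a-5p was detected on all 3 lens arrays, with 39.1, 46.4 and 47.4, against 95.6 to 255, a 3.70-fold difference (adjusted p = 1.46e-10). miR-322-5p, which is not in the list and has the same seed, was not detected in the lens and was detected on all 15 other arrays.

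miR-21a-5p, which is induced in inflammation and injury, had 57.8, 66.9 and 66.3 in the lens, 888 to 1268 in the cornea and 179 to 331 elsewhere, and was 5.01-fold lower than the mean (limma, adjusted p = 3.16e-11). Of the miR-23/27/24 list 4 of 5 were lower, and of the miR-30 list 5 of 7, where 27.3% of all tested miRNAs were. In the first list, miR-23b-3p had 40.6, 59.5 and 44.2 against 96.4, 355 and 440. That list was dim in the retina too, with a summed signal of 364 to 404 there, 407 to 451 in the lens and 1785 to 2372 in the sclera. miR-100-5p had 16.7, 18.8 and 20.004 against 36.1, 109 and 218. Of 9 let-7 members, 3 were lower and none higher, a share near the 27.3% called lower over all tested miRNAs. One of them was let-7b-5p, with 742, 807 and 727 against 1237 to 2146. The median log2 difference of the let-7 members was −0.85, and when older miRNAs set the scale it was −0.23, near the −0.20 of all tested miRNAs, with none of the 9 called. On that scale 3 members of the miR-23/27/24 list and 1 of the miR-30 list were called lower.

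**Figure D4:**
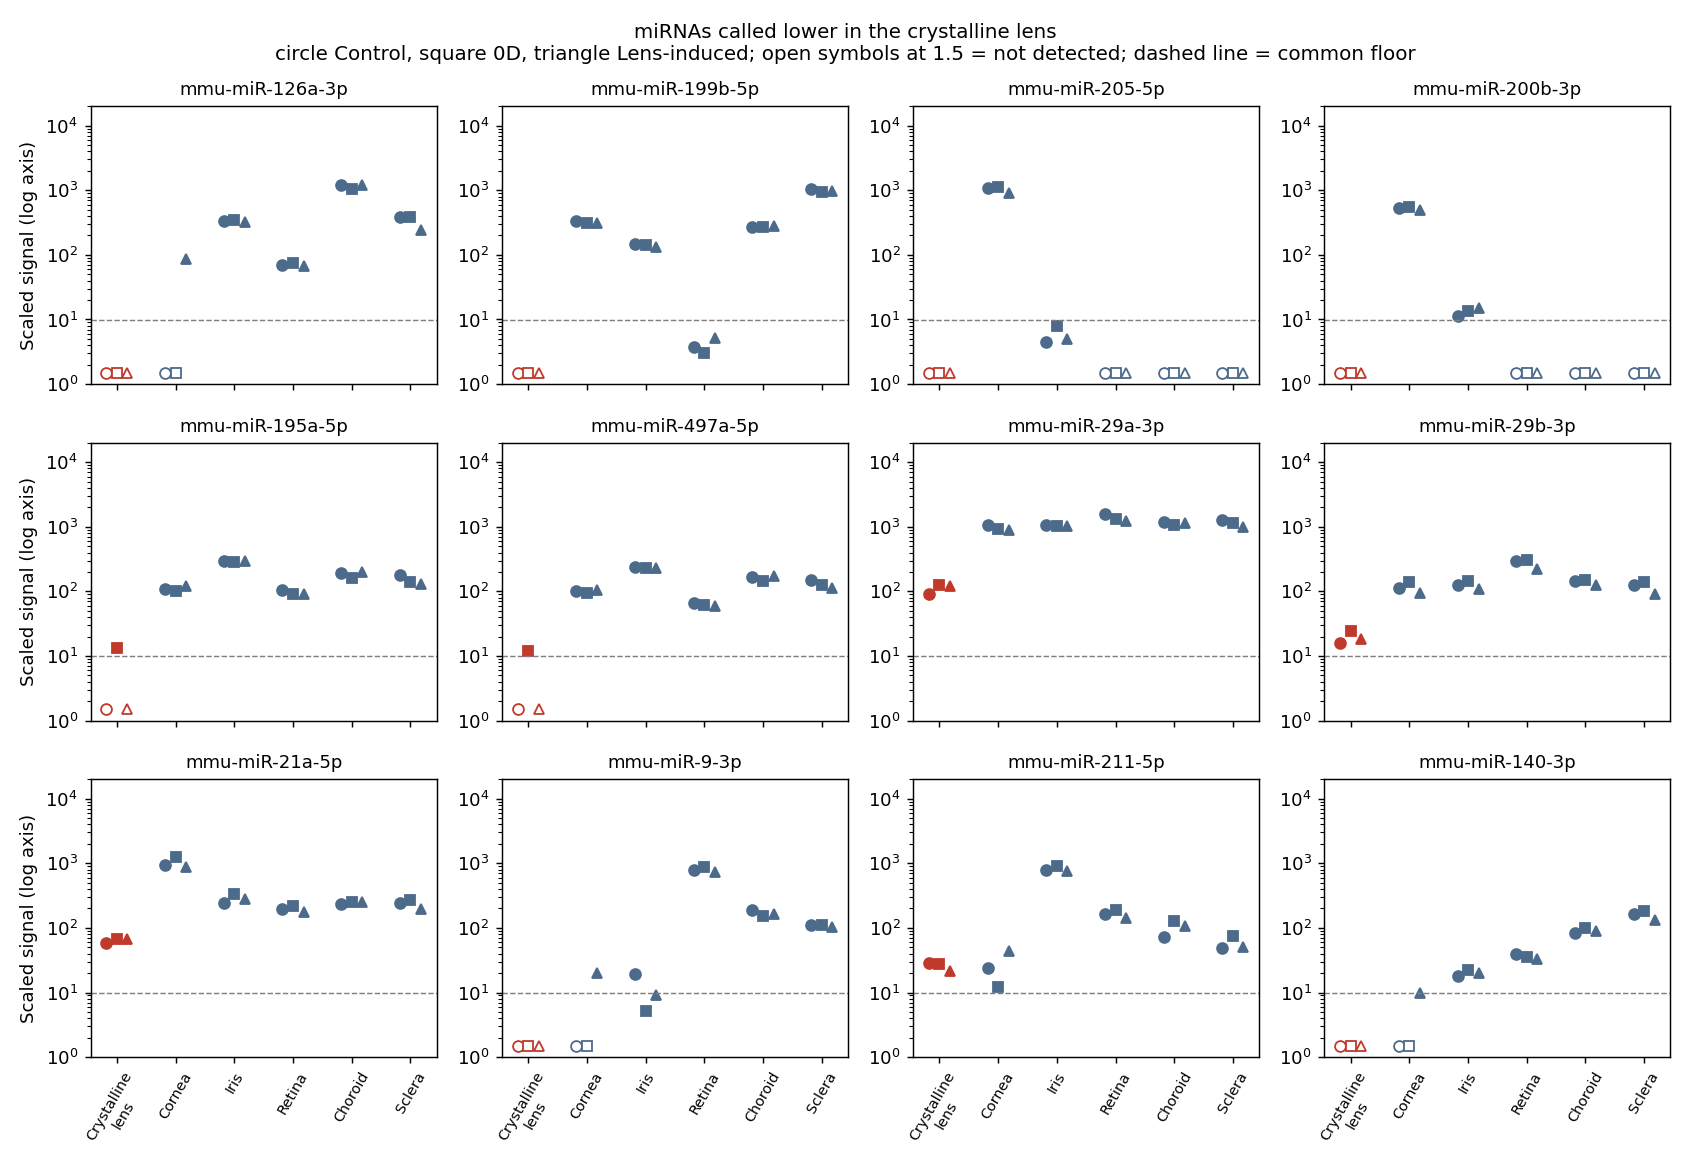
Points are scaled signals of single arrays on a log axis, by tissue, for 12 miRNAs called lower in the lens, with open symbols for arrays that did not detect the miRNA and a dashed line at the common floor. miR-29a-3p lies at 90.8 to 128 in the lens and at 901 or above elsewhere, and miR-195a-5p and miR-497a-5p are each detected on 1 lens array, the 0D array.

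On none of the 3 lens arrays, but on all 15 others, were 10 miRNAs detected: miR-199b-5p, miR-199a-3p, miR-322-5p, miR-127-3p, miR-154-5p, miR-193a-3p, miR-1839-3p, miR-425-5p, miR-30a-3p and miR-674-3p. Detection limits matter here, because the lowest detected scaled signal was 6.18 to 9.61 on the lens arrays and 1.09 to 9.93 on the others. The lens limit behind the bounds was higher, at 25.2 to 26.0. miR-674-3p reached at most 16.5 elsewhere and allowed no bound above 1. miR-193a-3p, miR-1839-3p, miR-425-5p and miR-30a-3p allowed 1.17 to 1.40-fold against their brightest tissue. Absence from the lens was not shown for these miRNAs. With the common floor for all arrays the count was 0, because each of the 10 lay under that floor on at least 1 of the other arrays, and without the 0D lens array it was 16. In all, 153 miRNAs were undetected in the lens and detected on all 3 arrays of at least 1 tissue, of which 90 allowed no bound above 1, 39 allowed at least 2-fold and 12 at least 10-fold. By tissue these were 27 of 129 in the cornea, 80 of 201 in the iris, 103 of 221 in the retina, 85 of 210 in the choroid and 81 of 204 in the sclera.

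Markers of other cell types were among them. miR-126a-3p, the endothelial miRNA hosted by Egfl7, was undetected in the lens and had 1030 to 1203 in the choroid, 329 to 350 in the iris, 242 to 393 in the sclera and 67.5 to 75.1 in the retina. The choroid was at least 45.1-fold above the limit of the lens, and the call against the mean had a limma adjusted p of 1.88e-06. In the cornea it was found on the Lens-induced array alone, with 86.5. Of the mesenchymal list, all 6 were undetected in the lens and all 5 tested were lower, where 27.3% of all tested miRNAs were lower. The sclera had 950 to 1052 of miR-199b-5p, at least 38.8-fold above the lens limit, and 832 to 929 of miR-199a-3p, at least 35.1-fold. All 8 blood miRNAs on the array were undetected in the lens, where 154 of all 1881 miRNAs were detected on at least 1 array. The other ocular arrays did not detect miR-144-3p, miR-144-5p, miR-486a-5p, miR-142a-5p and miR-150-5p either, and miR-142a-3p reached at most 5.17 there. The 2 tested, miR-451a and miR-223-3p, were called lower. Of these 2, 1 was still called when older miRNAs set the scale and none with quantile normalization, and both had a higher value in the lens after normexp. In a tissue sample, fewer cells of a type and less RNA per cell cannot be told apart.

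The epithelial miRNAs separated the lens from the cornea. All 5 members of the miR-200 list were undetected in the lens. miR-200b-3p had 495 to 543 in the cornea, at least 20.6-fold above the lens limit, and 11.5 to 14.9 in the iris. The other 3 tissues did not detect it. miR-205-5p, a miRNA of stratified epithelium, had 895 to 1108 in the cornea, at least 40.8-fold above the limit, and 4.53 to 8.06 in the iris. For both, the lower call against the mean of 5 tissues rested on the cornea, and it became a higher value under a normexp background correction, which leaves undetected probes with a signal of their own. miR-31-5p and miR-184-3p stood high in lens and cornea alike, while the miR-200 members and miR-205-5p were detected in the cornea and not in the lens.

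Retinal and neuronal miRNAs were present in part. miR-124-3p, a neuronal miRNA, had 105, 309 and 390 in the lens and 10202 to 11409 in the retina, so that the lens had 0.920%, 2.96% and 3.83% of the retinal signal of the same slide. For miR-183-5p these shares were 0.792%, 2.14% and 3.01%, and for miR-96-5p 0.948%, 2.22% and 3.16%. For each of the 3, the Control lens had the lowest share and the Lens-induced lens the highest, and spectacle group and slide cannot be told apart here. miR-128-3p, near the floor with 14.7 and 15.5, had 17.2% and 18.6% of the retinal signal in the Control and 0D lens. It was not detected in the Lens-induced lens, where the limit was 40.7%. miR-182-5p and miR-9-3p were not detected in the lens, where the limits were 3.60 to 4.79% and 2.58 to 3.73% of the retina. Of the 10 miRNAs of the list, 9 were tested, none was higher and 5 were lower (3 when older miRNAs set the scale, 2 with quantile normalization), and 6 were undetected on all 3 lens arrays. Over all tested miRNAs, 23.5% were higher and 27.3% lower. The summed signal of the list was 251 to 817 in the lens, 258 to 268 in the cornea, 55.9 to 121 in the iris, 915 to 1818 in the sclera, 1598 to 2685 in the choroid and 26246 to 29325 in the retina. The part of retinal RNA in the lens values was not tested.

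The 3 lens arrays were alike. Across miRNAs detected on both arrays of a pair, Spearman rho was 0.97 between Control and 0D (131 miRNAs), 0.97 between Control and Lens-induced (126) and 0.99 between 0D and Lens-induced (127), and 96.9%, 96.8% and 100% of them lay within 2-fold. These are correlations across miRNAs, which are not independent replicates. Of the 6 miRNAs with the widest range, 3 were miR-124-3p, miR-183-5p and miR-96-5p. The other 3 were miR-7118-5p with 192, 107 and 101, miR-3082-5p with 18.6, 36.8 and 21.1 and miR-3102-5p with 67.0, 58.4 and 35.5. With 1 array per spectacle group, no test of the spectacle lens within the crystalline lens was possible.

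Across the 238 tested miRNAs the profile of the lens had a Spearman rho of 0.58 with the choroid, 0.58 with the iris, 0.57 with the cornea, 0.55 with the sclera and 0.41 with the retina. The 5 other tissues had a median rho among themselves of 0.56 for the retina and 0.70 to 0.78 for the rest. Against single tissues, the lens had 55 miRNAs higher and 44 lower than the cornea, 62 and 56 against the iris, 61 and 80 against the retina, 55 and 68 against the choroid, and 56 and 74 against the sclera (limma, same thresholds).

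The miRNAs that were higher in the lens had a high content of G and C. RefSeq held the mature sequence of 198 of the 238 tested. The median GC content was 61.9% for the 47 higher miRNAs with a sequence, 45.5% for the 58 lower ones and 47.8% over all 198. Among older miRNAs the medians were 50% for higher, 45.5% for lower and 45.5% for those not called. Among later miRNAs they were 68.2% for the 25 higher ones and 59.1% for the 15 not called. The part of base composition in the differences was not tested.

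**Figure D5:**
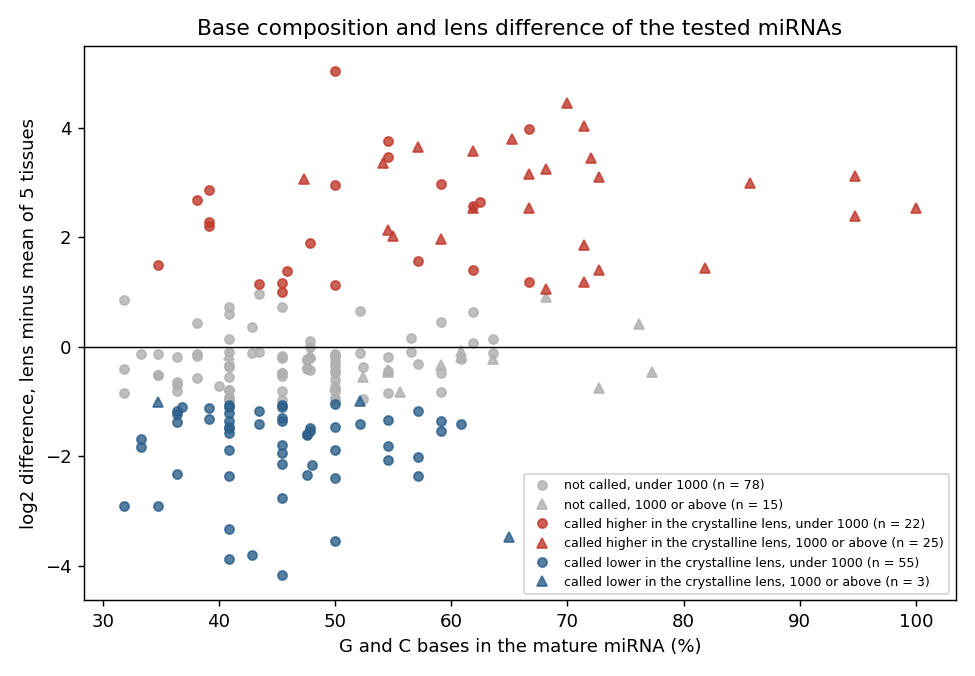
Each point is 1 of the 198 tested miRNAs with a RefSeq sequence, with the GC content of the mature miRNA in percent on the x axis and the log2 difference, lens minus the mean of the 5 other tissues, on the y axis, marked by whether it is numbered under 1000. Higher miRNAs have a median GC content of 61.9% and lower ones of 45.5%.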

How the data were processed

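The authors digitized 1-color Agilent mouse miRNA arrays (8 arrays per slide, cyanine 3) with Agilent Feature Extraction 10.7.1.1, and the deposited scanner files give for each probe a background-subtracted intensity with its error. For each miRNA, the intensities of its unique non-control probes above 3 errors were summed, which equaled the detected flag of the files in every case. The deposited normalized table was not used here, because its columns could not all be tied to arrays. The SCN and LGN arrays entered only the scaling.

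Sums were scaled to the 75th percentile of 79 miRNAs detected on all 24 arrays (64 of them let-7 or numbered under 1000), floored at 9.93 and fitted with limma 3.58.1 in R 4.3.3, with tissue and slide as terms. Adjusted p-values are Benjamini-Hochberg values over the 238 tested miRNAs. Single values per array were compared by exact permutation of tissues within slides, which takes the arrays of the other tissues as interchangeable. The number of arrays limits the precision. The fit was tested on simulated data. Other steps ran in Python 3.11.15 (scipy 1.17.1, pandas 2.3.3, numpy 2.4.6), with matplotlib 3.10.9 for plots.

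Named miRNAs were the 12 with the largest difference in each direction without overlap of arrays, up to 15 higher and 15 lower than in each tissue, the 10 brightest in the lens, list members and the 6 with the widest range among lens arrays; a few others were named after their values were seen. Members and lists were chosen with earlier results of these data known. Alternatives were other scalings, other values for undetected miRNAs, filters, detection limits, background correction, no block, a variance trend, no threshold of size and leaving out each lens array. Scaling on older or on later miRNAs, counting older miRNAs only, and an unscaled floor were added after the data were seen. The normexp correction used each spot's median signal, not its mean as planned.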

Additional observations from a re-analysis of the deposited data

Results flagged for a closer look

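Of the miRNAs called higher in the crystalline lens than in the other ocular tissues, 3 had a higher mean still on the 6 arrays of the SCN and LGN. These 3 were named after their values were seen, and the comparison does not use those arrays. For miR-34b-5p and miR-218-5p the lowest SCN or LGN array lay under the lens mean. miR-34b-5p had a mean scaled signal of 144 there (51.2 to 347), against 56.5 in the lens. miR-218-5p had 88.1 (65.7 to 114) against 69.9 in the lens. miR-34c-5p had 86.4 (29.2 to 201) against 25.4 in the lens.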

How the results depend on the processing

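The counts of called miRNAs, higher and lower than the mean of the 5 tissues, were 56 and 65. Without scaling they were 31 and 124, with undetected miRNAs at 0.1 they were 61 and 179, with undetected miRNAs at the lowest signal of their array 105 and 63, among miRNAs detected on all 18 arrays 28 and 26, without a threshold of size 67 and 129, after normexp 99 and 14, scaled on older miRNAs 61 and 40, and scaled on later miRNAs 8 and 104. The share of higher calls, 46.3% in the main setting, was 20, 25.4, 62.5, 87.6, 60.4 and 7.14% with no scaling, 0.1, the lowest signal, normexp, older and later miRNAs. Higher than in each tissue were 41, but 16 without scaling, 19 among miRNAs detected on all 18 arrays and 2 on later miRNAs. Lower than in each tissue were 13, but 36 without scaling, 30 with 0.1, 8 among miRNAs detected on all 18 arrays, 33 without a threshold of size, 1 after normexp, 5 on older and 49 on later miRNAs. Fewer miRNAs were tested in the filter on all 18 arrays, and the cause of the other shifts was not tested. Without the slide as a replicate block, the counts were 56, 64, 41 and 13. Leaving out 1 lens array gave 55 to 56 and 65 to 69, and 39 to 43 and 12 to 14 against each tissue. The number detected in the lens was 132.5 to 142.5 without 1 array, with an exact permutation p of 0.0556 without the Control array and also without the Lens-induced array, and of 0.0278 without the 0D array. The share of the 10 brightest was 92.8 to 93.1% without 1 array and 70.1% among older miRNAs (exact permutation p = 0.204). The count undetected in the lens and detected on all 15 others was 10 to 16 without 1 array, 0 with the common floor and 6 with the unscaled floor. The 75th percentile over all miRNAs was negative on at least 1 array (lowest −0.275) and was not run.

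Of 94 named and called miRNAs, 80 kept direction and call without scaling, 79 with quantile normalization, 77 on older miRNAs, 55 after normexp and 59 of 88 on later miRNAs. The log2 difference changed sign without scaling for miR-204-5p (−0.44), miR-125a-5p (−0.47), miR-181b-5p (−0.23), miR-92a-3p (−0.028) and miR-3102-5p (−0.22). On later miRNAs it did so for miR-5126 (−0.12), miR-204-5p (−1.49), miR-1224-5p (−0.12), miR-125a-5p (−1.52), miR-181b-5p (−1.28), miR-19b-3p (−0.44), miR-92a-3p (−1.08), miR-1a-3p (−0.20), miR-3102-5p (−0.95), miR-652-5p (−0.11), miR-218-5p (−0.15), miR-34b-5p (−0.39), miR-375-3p (−0.39), miR-31-3p (−0.52) and miR-20b-5p (−0.59). After normexp it did so for miR-27b-3p (0.036), miR-30b-5p (0.12), miR-30a-3p (0.64), miR-181c-5p (0.47), miR-200b-3p (0.56), miR-200c-3p (0.51), miR-429-3p (0.79), miR-129-5p (0.26), miR-129-2-3p (0.23), miR-451a (0.54), miR-223-3p (0.50), miR-205-5p (0.40), miR-199a-5p (0.49), miR-152-3p (0.37) and miR-322-5p (0.061). Dim miRNAs near the floor carry the least certain ratios.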
